A study of Mus musculus with 3 samples.

Results

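Lilrb4a, Lilr4b, Pirb and Lilra5 are 4 mouse genes of the leukocyte immunoglobulin-like receptor family and were described here in chromatin RNA of macrophages. They were taken by gene symbol from 55536 annotated genes, of which 22028 are protein coding, and they carry 33 annotated transcripts. Lilrb4a and Lilr4b were chosen by their mean TPM, the highest of all coding genes, so that their levels are a description with no test. The study holds 1 group of 3 libraries of C57BL/6J bone-marrow-derived macrophages, all made by ribosomal RNA depletion from the chromatin fraction. All cells were given Lipid A, the TLR4-binding part of lipopolysaccharide, at 100 ng/ml for 12 h, kept without it for 12 h and given 100 ng/ml again for 60 min. Libraries of replicates 1, 2 and 3 started from 1000, 250 and 500 ng of RNA, and no untreated arm was analysed here. Separate biosamples are labelled, all under one donor entry, and whether they were separate animals or cultures is not labelled. The spread between libraries may therefore be technical.

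Receptors of this family carry immunoglobulin domains outside the cell and work as opposed pairs. Inhibitory members hold immunoreceptor tyrosine-based inhibitory motifs (ITIMs) in a long cytoplasmic tail, and phosphorylated ITIMs recruit phosphatases such as SHP-1 (Ptpn6). Activating members have short tails and signal through the adaptor chain of Fc receptors (Fcer1g). Lilrb4a (gp49B) and Pirb (PIR-B) are inhibitory, Lilr4b (gp49A) lacks ITIMs, and the PIR-A genes Pira2 and Lilra6 are the activating relatives of Pirb. In macrophages, inhibitory receptors of this kind restrain activation, while chromatin RNA is enriched in transcripts that are still being made or processed.

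The difference between the inhibitory and the short-tailed member of the chromosome 10 pair lies in the end of their coding sequence, which is shown for that reason. The stretches below are the last coding bases of Lilrb4a-201 (mm10, chr10:51494819-51496244, + strand, spliced, 171 bases) and the matching end of Lilr4b-201 (mm10, chr10:51484543-51485760, + strand, spliced, 75 bases), both from GENCODE M21. Capitals mark the codons of the 2 ITIMs in Lilrb4a and a run of C in Lilr4b.
Lilrb4a: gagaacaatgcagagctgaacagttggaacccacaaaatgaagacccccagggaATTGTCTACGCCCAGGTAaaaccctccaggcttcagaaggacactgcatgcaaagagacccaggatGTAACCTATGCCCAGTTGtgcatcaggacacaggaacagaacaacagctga
Lilr4b: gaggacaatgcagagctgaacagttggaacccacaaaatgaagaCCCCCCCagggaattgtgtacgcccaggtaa
The run of C has 7 bases in Lilr4b and 5 in Lilrb4a, and exon 8 of these models has 68 and 66 bases. Past this run the annotated reading frames differ, and that of Lilr4b ends at a stop codon at the end of the bases that match the first ITIM of Lilrb4a. The coding sequences have 912 and 1008 bases, and 874 of 910 aligned bases (96.0%) are identical. A search of the translated models for the pattern of an ITIM (I, V, L or S, any residue, Y, any pair of residues, then I, V or L) found 2 matches in the last 150 residues of Lilrb4a-201, 3 in those of Pirb-201 and 0 in those of Lilr4b-201, Lilra5-201, Pira2-201 and Lilra6-201.

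Lilrb4a (ENSMUSG00000112148.1, mm10 chr10:51490956-51496611, + strand) had 2494, 2814 and 3579 TPM (a level per length that sums to a fixed total in each library) in replicates 1, 2 and 3. Its mean was 2962 ± 557 TPM (SD, n = 3), the highest of all coding genes in each library. Lilr4b (ENSMUSG00000112023.1, mm10 chr10:51480632-51486703, + strand) had 2151, 2063 and 2747 TPM, with a mean of 2320 ± 372. Replicate 3 was the highest for both genes, and Lilrb4a was above Lilr4b within each library although the ranges of the genes overlapped. H2-K1, a class I MHC heavy chain and the next coding gene by mean level, had 2341, 2241 and 2037 TPM. It lay above Lilr4b in replicates 1 and 2 and below it in replicate 3, so that the second place of Lilr4b rests on replicate 3. By kallisto, Lilr4b ranked 4th by mean TPM and Lilrb4a stayed 1st.

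Pirb (ENSMUSG00000058818.13, mm10 chr7:3711409-3720391, - strand), an inhibitory receptor for MHC class I, had 456, 435 and 389 TPM and a mean of 427 ± 34.5 (SD, n = 3). It ranked 71st among coding genes, and replicate 3, the highest library for the chromosome 10 pair by RSEM TPM, was its lowest. Within a library Lilrb4a held 5.47 to 9.21 times and Lilr4b 4.71 to 7.07 times the TPM of Pirb. Lilra5 (ENSMUSG00000070873.5, mm10 chr7:4237754-4243463, + strand), an activating member, had expected counts of 0, 1 and 0. A count of 0 allows up to 0.238 CPM (counts scaled to a common library total) in replicate 1 and 0.176 in replicate 3, a limit of 3 counts that covers counting error only. Its RNA was not detectable at this depth.

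Counts ordered the pair the other way. Lilr4b had 76866, 71061 and 94618 expected counts and Lilrb4a had 68512, 70886 and 93535. Lilrb4a held 47.1, 49.9 and 49.7% of their summed counts, so that the genes were close in replicates 2 and 3. The effective lengths in the tables were 1834 to 1894 bases for Lilrb4a and 2417 to 2590 for Lilr4b, which puts Lilrb4a ahead once counts are divided by length. Together the pair took 1.15, 0.824 and 1.10% of all gene counts. Pirb had 19577, 16637 and 16053 counts, which is 1553, 966 and 942 CPM. By CPM, which takes no account of length, replicate 2 was the lowest library for both genes of the pair. It had 4116 for Lilrb4a and 4126 for Lilr4b. The highest library of Lilr4b was replicate 1 by CPM (6099, against 5552 in replicate 3) and by kallisto TPM (2617, against 2144). For Lilrb4a, replicates 1 and 3 were close by CPM, at 5436 and 5488.

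**Figure D1:**
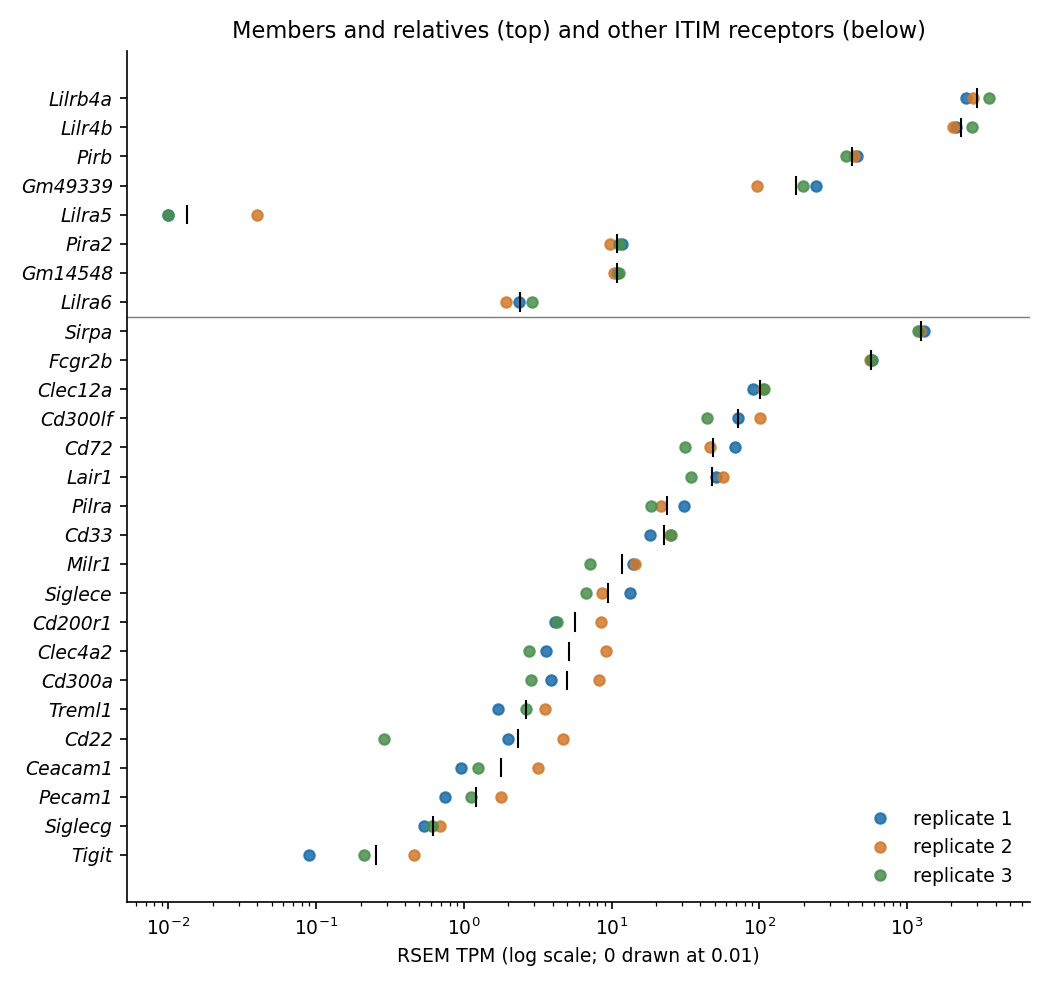
Level of each gene in RSEM TPM on a log axis, one point for each of 3 libraries and a bar at the mean. Lilrb4a and Lilr4b sit above 2000 TPM in every library and above Sirpa (1197 to 1298 TPM), while Lilra5 is at 0 in replicates 1 and 3.

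The libraries held 12602702, 17222239 and 17042691 expected gene counts. All 10 macrophage markers were at 10 TPM or more in each library. Markers of fibroblasts and stroma summed to 0, 40207 and 93 counts in replicates 1, 2 and 3, with 8 of 8 genes detected. None of the markers of neutrophils (7), T and NK cells (6), B cells (5) and erythroid cells (4) was detected, with at most 5 counts summed over a list in a library. Of mast cell markers 2 of 8 and of dendritic markers 4 of 6 were detected, summing to at most 75 and 49 counts. In bulk RNA, fewer cells of a type and less RNA per cell cannot be told apart.

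Another annotated gene, Gm49339 (ENSMUSG00000062593.17, mm10 chr10:51480612-51496613, + strand, protein coding), covers the whole pair. It is annotated as a readthrough gene that joins the first exon of Lilr4b to the exons of Lilrb4a. Its main transcript Gm49339-203 encodes the same protein as Lilrb4a-201, since their coding sequences are identical over 1008 of 1008 bases. The whole of Lilrb4a-201 (1381 bases) lies unbroken inside Gm49339-203 (1441 bases), which adds 59 bases at the 5′ end and 1 at the 3′ end. Likewise Lilrb4a-212 (1279 bases) lies unbroken inside Gm49339-201 (1340 bases). A fragment from the shared bases fits either model, so the tables cannot tell the fully spliced RNA of Lilrb4a from that of Gm49339.

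Both tools put this spliced RNA into Gm49339. Lilrb4a-201 and Lilrb4a-212 were at 0 in every library by RSEM and by kallisto. Gm49339-203 had 221, 74.9 and 164 TPM by RSEM and 186, 49.1 and 115 TPM by kallisto, highest in replicate 1 and lowest in replicate 2 by either tool. As counts this was 4154, 1167 and 2788 by RSEM. Gm49339 as a whole reached 242, 95.8 and 198 TPM. The member with the most chromatin RNA thus had almost none under its own coding models, and the RNA that could encode its protein stood under another gene name.

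The 14 transcripts of Lilrb4a comprise 9 of the annotated retained-intron class, 4 protein coding and 1 subject to nonsense-mediated decay. Retained-intron models are annotated as noncoding because they keep intronic sequence. They held 2494, 2804 and 3563 TPM, which is 99.7% ± 0.224 of the gene (SD, n = 3), while its 4 protein-coding models held 0.37, 0 and 1.84 TPM. The largest was Lilrb4a-206 (1279 bases), at 1186, 1196 and 1568 TPM by RSEM. Its first exon begins inside intron 7 and continues into exon 8, so it covers only the 3′ end of the gene. Next came Lilrb4a-209 at 565, 686 and 1027 TPM, which starts at the 5′ end and runs through introns 3 to 5. These 2 models held 70.2, 66.9 and 72.5% of the gene. Lilrb4a-207 had 429, 356 and 511 TPM and Lilrb4a-214 had 210, 378 and 266. In replicate 1 alone, Lilrb4a-203 and Lilrb4a-205 were at 0, against 76.7 and 62.0 TPM for the former and 10.1 and 13.7 TPM for the latter in replicates 2 and 3.

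The division was different in Lilr4b, where 13 of 13 transcripts were above 0 in every library. Its 8 retained-intron models held 77.9% ± 3.53 and its 2 nonsense-mediated decay models 20.3% ± 3.16 of the TPM (SD, n = 3). Its 2 protein-coding models held 29.0, 19.6 and 43.3 TPM, or 1.29% ± 0.317. The unspliced model Lilr4b-206, a single exon of 4004 bases that runs through introns 1 to 6, had 543, 594 and 494 TPM. Lilr4b-207 had 323, 474 and 629 TPM and was the largest model in replicate 3 only. Lilr4b-204, whose spliced structure is annotated for nonsense-mediated decay, had 470, 296 and 474 TPM, far above the coding model Lilr4b-201 at 6.44, 9.70 and 18.4 TPM.

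Pirb kept the largest coding share under its own name. Its single coding model Pirb-201 had 46.8, 66.6 and 68.9 TPM, or 10.2, 15.3 and 17.7% of the gene. The retained-intron models Pirb-202 (199, 207 and 189 TPM) and Pirb-205 (162, 131 and 102 TPM) held 79.1, 77.7 and 74.8% together. Replicate 1 had the most TPM in Pirb-205 and the least in Pirb-201. Lilra5 has 1 annotated transcript, at 0, 0.04 and 0 TPM.

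**Figure D2:**
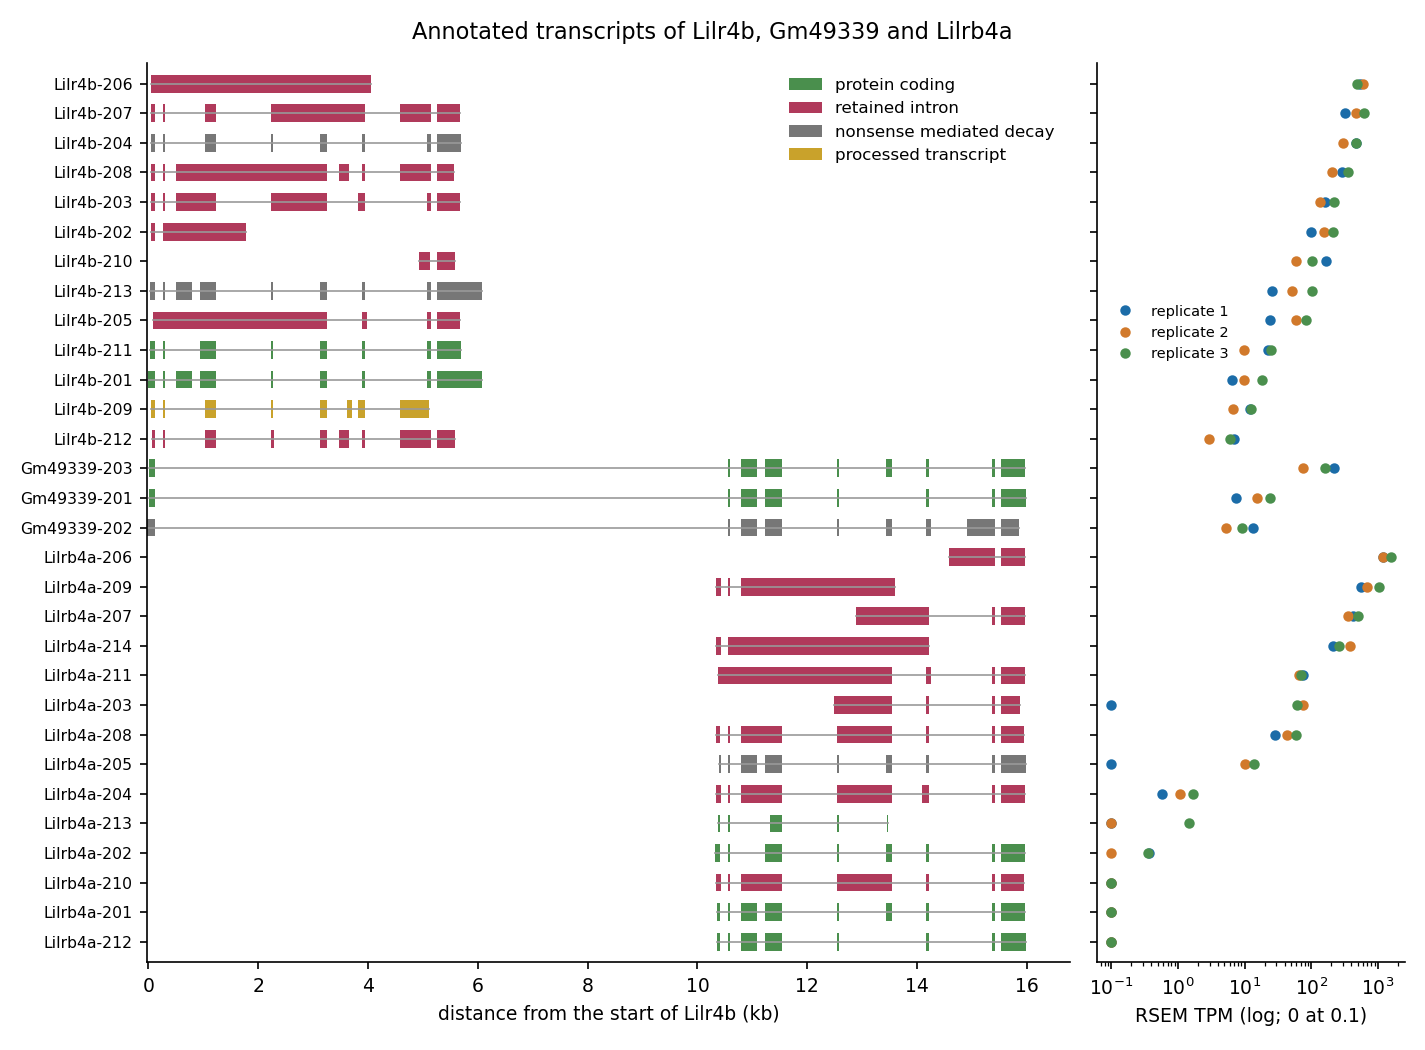
Exons of each annotated transcript of Lilr4b, Gm49339 and Lilrb4a by distance from the start of Lilr4b in kb, coloured by class, with RSEM TPM of 3 libraries on a log axis at the right. Retained-intron models reach over 1000 TPM (Lilrb4a-206), while Lilrb4a-201 is at 0 and Gm49339-203, which contains it, has 74.9 to 221 TPM.

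The balance of the classes was tested over all genes that have both, as log2 of retained-intron over protein-coding TPM, each plus 0.1. With limma and Benjamini-Hochberg adjustment over 4311 genes, 26.6% were called higher in the retained-intron class and 26.8% in the protein-coding class, and the median ratio was -0.06. Lilr4b had ratios of 5.79, 6.42 and 5.61 and a mean of 5.94 ± 0.589 (SE). Pirb had ratios of 3.13, 2.47 and 2.21 and a mean of 2.60 ± 0.275 (SE), with an adjusted p of 0.00519 in limma. Both therefore held more RNA in retained-intron models in 3 of 3 libraries. The number of genes called higher fell from 1146 to 569 without replicate 3, and with expected counts 750 were higher and 2449 lower. The rule chose the pair by summed TPM, of which retained-intron models held 77.9% in Lilr4b and 99.7% in Lilrb4a. The ratios of these 2 genes are therefore a description, and no adjusted p of theirs is read as a test.

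For Lilrb4a alone the ratio was 12.37, 14.78 and 10.84, and limma gave an adjusted p of 0.614 with an SE of 20.0. The prior spread in this fit follows the mean ratio itself. With no such trend, an alternative chosen after seeing the data, the same ratio had an SE of 0.795. With the transcripts of Gm49339 counted with Lilrb4a (an alternative chosen after seeing the data), the coding models summed to 229, 90.5 and 190 TPM. Coding models then made up 8.38, 3.11 and 5.04% of the joined TPM. The ratio became 3.44, 4.95 and 4.23, with a mean of 4.21 ± 0.457 (SE). Replicate 2 had the lowest coding share in the joined gene and in Lilr4b (0.951%), and replicate 1 had the lowest in Pirb.

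Introns were then followed one at a time, a measure chosen after seeing the data. For each intron of the first coding model (Lilrb4a-201, Lilr4b-201 or Pirb-201), all annotated transcripts that span it were taken, whatever splice sites they use. The share kept is the percentage of its bases that stay in these transcripts, weighted by TPM. Transcripts that begin or end inside the intron were left out of it. In Lilrb4a with Gm49339, introns 3, 4 and 5 were kept at 85.7% ± 6.78, 82.4% ± 6.26 and 86.0% ± 7.03 (SD, n = 3). Introns 1, 2 and 6 were kept at 8.07% ± 1.00, 26.9% ± 7.19 and 67.3% ± 3.54. Replicate 1 was the lowest library for introns 3 to 6. Without Gm49339 introns 3 and 5 were kept at 99.3 and 99.4%, as nearly all spliced RNA at these introns was assigned to Gm49339. This assignment cannot tell readthrough RNA from spliced RNA of Lilrb4a.

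The paralog Lilr4b had its highest share at intron 5, kept at 71.1, 79.6 and 73.7%, followed by introns 3 and 6 at 55.3% ± 2.89 and 55.2% ± 5.98 (SD, n = 3). Intron 3 differed between the genes in value, with 52.0 to 57.5% in Lilr4b and 78.4 to 91.7% in the joined Lilrb4a, and so did intron 4, with 43.5% ± 4.17 and 82.4% ± 6.26. At both introns the 3 libraries of one gene did not overlap those of the other, and no test was made. At intron 3 the order of the genes reversed under the other count given below. In Pirb introns 1, 6 and 7 of 14 are kept by an annotated transcript. Intron 6 was kept at 85.3, 82.0 and 80.5%, intron 1 at 38.9% ± 6.41 and intron 7 at 30.6% ± 4.64. In each library intron 6 was kept most, then intron 1 and then intron 7.

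These shares depend on which transcripts are counted as spliced. When only transcripts that splice an intron at the same ends as the coding model were set against those that keep it whole, intron 3 of Lilr4b came to 97.2, 95.0 and 91.8% and was the highest of that gene. That count leaves out 835, 790 and 1147 TPM of 5 transcripts, Lilr4b-204 and Lilr4b-207 chiefly, which remove introns 2 and 3 together with the exon between them. By this count intron 3 of the joined Lilrb4a came to 78.4, 91.7 and 87.1%, below Lilr4b in each library. The order of the genes at intron 3 thus depends on the count. For intron 1 of the joined Lilrb4a this count came to 62.1% ± 9.32, but rested on at most 9.25% of the TPM there in a library. Most of the rest splices intron 1 from a site 5 bases further on (Lilrb4a-209 and Lilrb4a-214).

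No annotated transcript of the pair keeps all of intron 7 or any of intron 8, and none of Pirb keeps the other 11 introns. A share of 0% for these reflects the annotation and does not measure splicing. Lilrb4a-206, which begins inside intron 7, holds 778 of its 1148 bases and is left out of the share there. Its 1186, 1196 and 1568 TPM stand against 776, 650 and 915 TPM of transcripts that span this intron in the joined locus. In Lilr4b, Lilr4b-207 and Lilr4b-208 keep 497 of the 1143 bases of intron 7, and 20.4, 24.1 and 22.9% was kept over all that span it. In chromatin RNA, unspliced RNA on its way to splicing and stable RNA that keeps an intron cannot be told apart from these tables.

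The 5′ splice site of an intron of each gene is shown to give the place of this RNA. Lower case marks the 40 bases before the site and capitals the first 40 bases of the intron. In Lilrb4a and Lilr4b the first lower-case bases (gcag) are the end of intron 4, which the models used also keep. Intron 4 of Lilrb4a ends at chr10:51493169, and the other lower-case bases are exon. The introns chosen have the highest mean share kept over each gene's own transcripts. They are intron 5 of Lilrb4a (mm10, chr10:51493166-51493245, + strand), intron 5 of Lilr4b (mm10, chr10:51482865-51482944, + strand) and intron 6 of Pirb (mm10, chr7:3717078-3717157, - strand), read from the GENCODE M21 models Lilrb4a-209, Lilr4b-208 and Pirb-205.
Lilrb4a intron 5: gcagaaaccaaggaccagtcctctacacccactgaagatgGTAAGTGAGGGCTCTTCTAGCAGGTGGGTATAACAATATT
Lilr4b intron 5: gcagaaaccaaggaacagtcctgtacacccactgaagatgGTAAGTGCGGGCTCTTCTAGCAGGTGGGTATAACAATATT
Pirb intron 6: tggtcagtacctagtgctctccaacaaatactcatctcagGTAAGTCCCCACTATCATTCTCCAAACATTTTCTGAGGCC
Each of the 3 introns begins with GT, the usual start of a spliced intron. The introns are 856, 857 and 227 bases long.

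**Figure D3:**
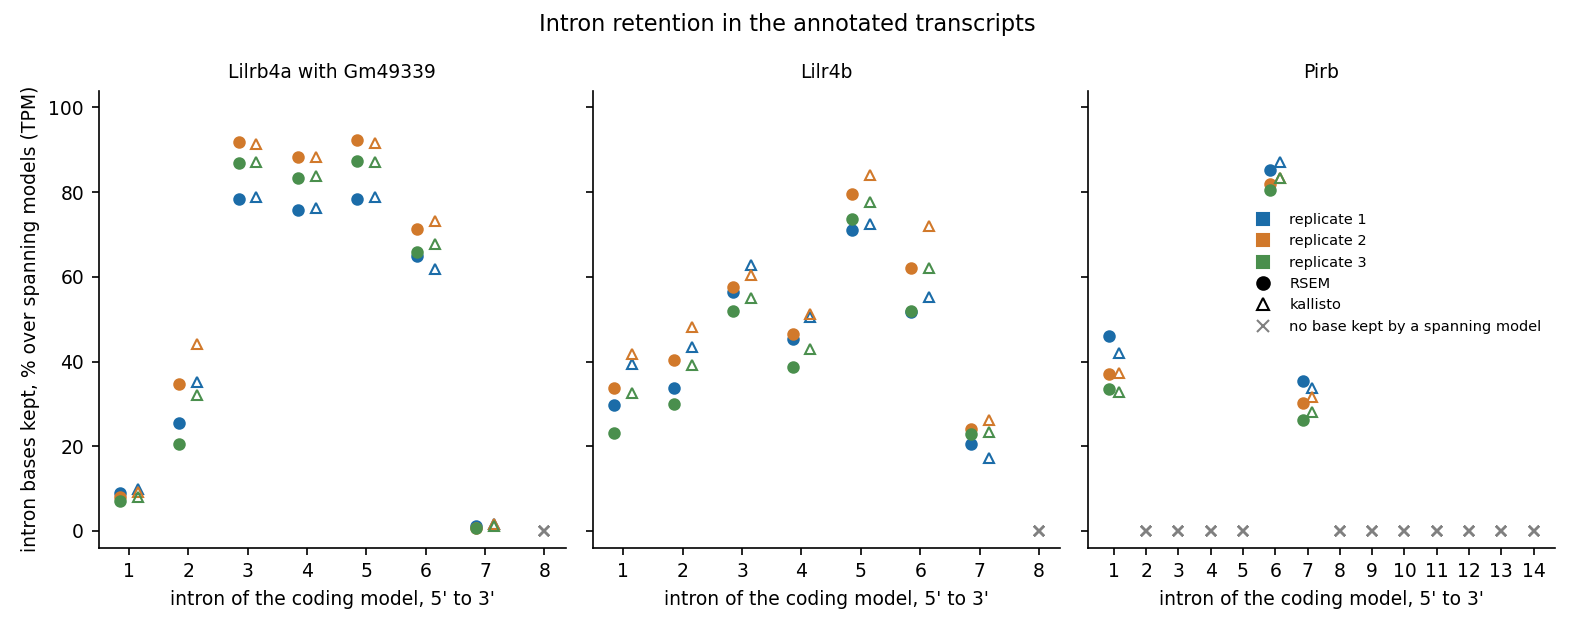
Share of the bases of each intron kept in the transcripts that span it, in percent weighted by TPM, for 3 libraries by RSEM (filled circles) and kallisto (open triangles). Introns are numbered 5′ to 3′ along the first coding model, crosses mark introns of which no spanning transcript keeps a base, and the highest shares are at introns 3 to 5 of the Lilrb4a locus, intron 5 of Lilr4b and intron 6 of Pirb.

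Reads can be shared between these genes. Of the 31-base words of Lilrb4a transcripts, 56.1% also occur in a transcript of another gene, 39.1% in Lilr4b and 35.0% in Gm49339. Of the words of Lilr4b, 37.3% are shared and 36.7% occur in Lilrb4a. Lilrb4a-201 has no word of its own, as 100.0% occur in Gm49339, and Gm49339-203 has none either. Lilrb4a-206, the largest model, shares 77.5% of its words and keeps 281 of its own. Lilr4b-206 shares 33.9%, and Lilra5-201 shares 0 of 2079. Pirb shares 44.1% of its words, with 23.1% in Pira2, 23.1% in Lilra6 and 23.7% in Gm14548.

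RSEM's own uncertainty was small next to the spread between libraries. The posterior SD of the gene count was 70.9 to 111 counts for Lilrb4a, 38.6 to 67.5 for Lilr4b and 8.19 to 14.2 for Pirb. This spread holds within one alignment and model, and does not include the choice of tool. With kallisto the pair divided differently. Lilrb4a took 50.3, 54.8 and 55.7% of the pair's estimated counts, against 47.1, 49.9 and 49.7% by RSEM. It was the larger gene by kallisto counts in 3 of 3 libraries and the smaller by RSEM counts in 3 of 3.

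Kallisto assigned more reads than RSEM to most genes, and the median gene had 2.00, 2.40 and 2.85 times its RSEM count in replicates 1, 2 and 3. The members gained less. Lilrb4a had 1.45, 1.49 and 1.53 times, Lilr4b 1.27, 1.22 and 1.20 times and Pirb 1.39, 1.50 and 1.44 times their RSEM counts. Relative to the median gene, the log2 ratio was -0.69 ± 0.143 (SE) for Lilrb4a and -0.96 ± 0.150 (SE) for Lilr4b. These are a description with no test, since the RSEM level in the denominator is what chose both genes. For Pirb it was -0.73 ± 0.144 (SE), with an adjusted p of 0.0029 in limma over 23610 genes, of which 37% were called lower and 40.7% higher. With no filter on low counts, the call for Pirb was lost (-0.61, adjusted p of 0.0597 in limma). With no centring on the median gene the same ratios are 0.57, 0.30 and 0.53, so the direction holds only relative to the median.

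Single models differed more between the tools than genes did. Lilrb4a-206 had 1918, 1662 and 2552 TPM by kallisto, or 1.39 to 1.63 times its RSEM level, and was the largest Lilrb4a model by either tool in every library. Lilrb4a-209 went the other way, with 439, 360 and 587 TPM by kallisto. The largest difference among the leading models of Lilr4b was in Lilr4b-210, a 520-base model of the 3′ end. It had 166, 60.3 and 103 TPM by RSEM and 829, 271 and 387 by kallisto, 3.76 to 4.99 times as much. In replicate 1 it was the largest Lilr4b model by kallisto, while Lilr4b-206 was the largest by RSEM. For Pirb, Pirb-202 was the largest by either tool in each library. Pirb-201 had 37.5, 44.6 and 47.1 TPM by kallisto, below its RSEM value in each library.

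The class shares were closer than the single models. By kallisto, retained-intron models held 99.7% of Lilrb4a, 84.8% of Lilr4b and 88.5% of Pirb, against 99.7, 77.9 and 85.6% by RSEM. The retention of intron 6 of Pirb was 87.2, 83.4 and 83.4% by kallisto. In the joined Lilrb4a locus, the shares of introns 3, 4 and 5 lay within 1 percentage point of the RSEM values in each library. Intron 2 there was further apart, at 25.4, 34.7 and 20.6% by RSEM and 35.1, 44.1 and 32.2% by kallisto.

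**Figure D4:**
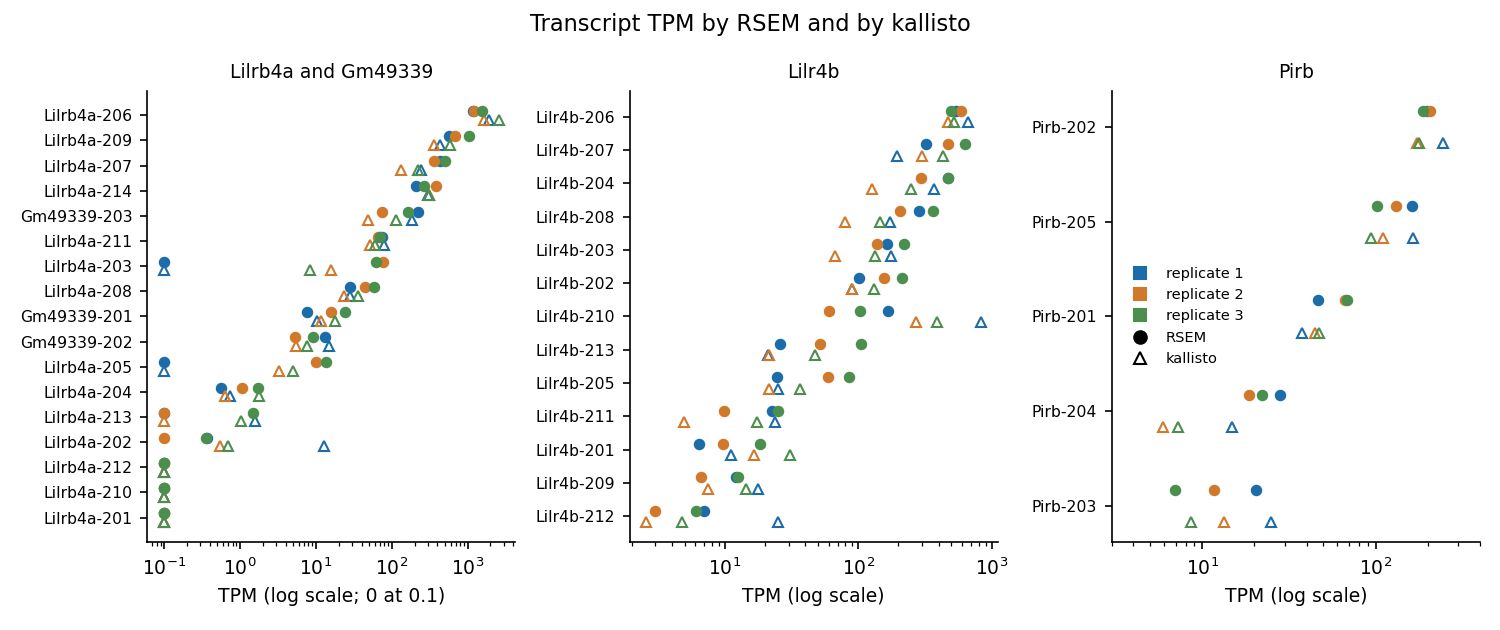
TPM of each annotated transcript on a log axis by RSEM (filled circles) and by kallisto (open triangles) for 3 libraries, in the order of the RSEM mean. Lilr4b-210 stands apart with 271 to 829 TPM by kallisto and 60.3 to 166 by RSEM, and Lilrb4a-201 is at 0 by both tools.

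The activating relatives of Pirb were lower than Pirb in gene TPM. Pira2 had 11.8, 9.71 and 11.2 TPM, Gm14548 had 10.9, 10.3 and 11.2, and Lilra6 had 2.38, 1.93 and 2.91. Pirb held 34.8 to 44.8 times the TPM of Pira2 and 134 to 225 times that of Lilra6. Retained-intron models held 89.8, 84.7 and 82.3% of the TPM of Pirb. Pirb and Lilra6 have 5 annotated transcripts each, Pira2 has 2 and Gm14548 has 1, so intronic RNA may be counted unequally. The part of this in the ratios was not tested. The coding model Pirb-201 alone had 46.8, 66.6 and 68.9 TPM, above the gene TPM of Pira2 in each library but much closer to it. Gm15922 is a polymorphic pseudogene in the annotation, and its start lies in the window around the RefSeq start of Pira1 (chr7:3739868-3740167). Gm15922 had 18.1, 17.9 and 16.9 TPM, and Gm15448 had 1.41, 2.36 and 2.00. Pirb took 91.3% ± 0.621 of the expected counts of these 6 genes by RSEM (SD, n = 3) and 91.1% ± 0.856 by kallisto. Coding sequence of Pirb is 96.9% identical to that of Pira2 and 97.4% to that of Gm14548 where they align, so reads can pass between them. Of the 30 other annotated genes in or beside the 2 clusters, Gm49339 included, 6 were at 10 TPM or more in each library and 5 were at 0 in each RSEM table. Lair1, a collagen receptor with ITIMs, had 51.3, 56.8 and 34.4 TPM there.

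The sequence upstream of Pirb, Pira2 and Lilra6 is nearly the same, and a part of it is shown for that reason. Its bearing on the difference in level was not tested. The stretches are 80 bases upstream of each gene start, on the - strand, from RefSeq on GRCm38.p6: Pirb (chr7:3720463-3720542), Pira2 (chr7:3845160-3845239) and Lilra6 (chr7:3915612-3915691). Capitals mark the word GAGGAAGT, which holds the GGAA core bound by ETS factors such as PU.1.
Pirb: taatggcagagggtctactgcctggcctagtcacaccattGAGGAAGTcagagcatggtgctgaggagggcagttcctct
Pira2: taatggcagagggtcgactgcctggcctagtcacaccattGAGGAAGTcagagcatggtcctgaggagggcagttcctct
Lilra6: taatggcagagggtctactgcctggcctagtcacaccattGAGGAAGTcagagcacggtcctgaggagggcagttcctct
The word starts 120, 148 and 150 bases before the annotated gene starts. It occurs on either strand in 3.20% of 32851 promoter windows of 300 bases. In the same windows (250 bases before to 50 after the start), Pirb was identical to Pira2 at 264 of 272 aligned bases and to Lilra6 at 259 of 270. The window of Pira1, which holds the start of Gm15922, also has the word and was identical to Pirb at 292 of 300 bases. The windows of Lilra5 and Lilr4b do not hold the word. A match is a description of these letters and does not show binding.

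The effectors and proximal kinases of the ITIM pathway were below the pair in mean level, which the choice of the pair had fixed beforehand. All 17 were detected, 9 had at least 10 TPM and 2 at least 100 TPM in each library. Among all coding genes 62.8% were detected, and 16.7% and 2.15% reached these levels. Syk, the kinase downstream of activating chains, had 712, 673 and 763 TPM. Lyn, a Src-family kinase that phosphorylates ITIMs, had 209, 229 and 127, and Inpp5d, the lipid phosphatase SHIP1, had 74.9, 152 and 57.9. The phosphatases recruited by ITIMs of this family were lower by RSEM. Ptpn6 (SHP-1) had 51.3, 49.9 and 25.7 TPM and Ptpn11 (SHP-2) had 8.13, 9.51 and 9.12. These last 2 were named after their values had been seen. By kallisto the mean was 110 TPM for Ptpn6, 103 for Inpp5d and 10.7 for Ptpn11, so that Ptpn6 was not below Inpp5d. The kinase Fgr was the lowest of the list, at 0.66, 0.37 and 0.21 TPM.

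Of 3 activating adaptors, Fcer1g, the chain used by the activating relatives, had 203, 168 and 128 TPM. Tyrobp (DAP12) had 23.6, 48.9 and 19.8 TPM and Hcst (DAP10) had 2.19, 2.00 and 1.07. Of 14 ligands and coreceptors, 13 were detected and 7 had at least 10 TPM in each library. The class I heavy chains H2-K1 and H2-D1, which Pirb binds, led the list, the latter at 988, 830 and 847 TPM. Itgav, an integrin chain, had 98.5, 102 and 272 TPM, its partner Itgb3 had 0.09, 0.74 and 0.13, and Rtn4r, the Nogo receptor, was undetected with at most 2 counts. Fn1 and Apoe, listed as ligands of human or mouse LILRB4, had 65.3 and 240 TPM in replicate 2. In replicates 1 and 3, Fn1 had 0.04 and 0.24 TPM and Apoe 42.8 and 29.1. These 2 were named after their values had been seen, and replicate 2 is also the library with the stromal markers. The part of those cells in the values was not tested.

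Among 19 other listed ITIM receptors, not all of them myeloid, 19 were detected and 2 had at least 100 TPM in each library. Sirpa, the receptor for CD47, had 1298, 1226 and 1197 TPM. Lilrb4a held 1.92 to 2.99 times and Lilr4b 1.66 to 2.30 times as much as Sirpa in the same library. The choice of the pair by mean level fixed this order of the means. Fcgr2b, the inhibitory Fc receptor, had 584, 566 and 574 TPM, above Pirb in each library. Clec12a had 90.0, 106 and 108 TPM and Tigit, the lowest, had 0.09, 0.46 and 0.21. Tigit had 1, 4 and 2 counts and so was detected through replicate 2 only. Of 20 activating partner receptors, 17 were detected. Clec4e (Mincle) led with 795, 843 and 1003 TPM, before Clec4d with 194, 158 and 243 and Cd300c2 with 33.5, 39.7 and 16.5. Trem1 was the lowest detected at 0.07, 0.08 and 0.10 TPM, and Trem3, Siglech and Oscar were undetected with at most 1 count in a library.

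Genes with the most similar pattern over the 3 libraries were sought among 602 coding genes outside the family with a mean of at least 100 TPM. Likeness was the root mean square difference in log2 CPM, each gene centred on its own mean. For Lilrb4a the nearest were Trim30a (0.01), Ogt (0.03) and Cflar (0.03). Lilr4b lay at 0.07 from Lilrb4a, with 33 of the 602 genes nearer, and Pirb at 0.30, with 403 nearer. With 3 points per gene this is a description of the libraries only.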

How the data were processed

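Members and gene lists were chosen with earlier results of these data known. Expected counts per gene and transcript, and TPM beside them, were deposited by the authors in the layout that RSEM writes, from reads aligned to the transcriptome (mm10, GENCODE M21), per the deposited file notes. The authors deposited estimated counts and TPM in kallisto layout, made from the reads. The share of each transcript in its gene was deposited as a percent. The sources used here give no aligner, strand setting or tool version, so overlapping and antisense genes can share reads.

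Rows that name no gene held 1.94, 0.269 and 0.386% of counts and were left out. All 55536 gene rows were matched to M21. A gene was detected with over 3 counts in any library. CPM used the sum of gene counts, and kallisto values were summed per gene. Levels were given with no test. The 2 whole-table fits used limma 3.58.1 in R 4.3.3, with an intercept, a trended prior and Benjamini-Hochberg adjustment at 0.05. The first used log2 of kallisto over RSEM counts, each plus 0.5, minus the library's median, for genes with a mean of the larger count of at least 10. The second used log2 of retained-intron over protein-coding TPM, each plus 0.1, for genes with a summed mean of at least 5 TPM. The first fit was tested on simulated data. A first version with the real spread of each gene, shuffled, recovered none of the changes put in, whatever their size. Known changes were recovered with the moderated spread of genes with small ratios, the smallest size excepted, and with reduced spreads, settings chosen after that failure. False calls often exceeded the adjusted level there, so the adjusted p-values are approximate. The second fit was not simulated. Coding sequences were aligned with Biopython 1.88 from M21 transcripts. Proteins were compared only as coding sequence.

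Named genes were the members, the genes of their clusters, the first coding gene below the pair, and from each list the 3 highest, the lowest detected and the undetected members. Alternatives were pseudocounts, filters, centring, posterior means, the other tool and leaving out each library.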

Additional observations from a re-analysis of the deposited data

How the results depend on the processing

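No paired analysis was possible because there is only 1 group. Relative to all coding RNA in place of all genes, mean TPM was 9751 for Lilrb4a, 7687 for Lilr4b, 1413 for Pirb and 0.038 for Lilra5. Lilra5 was at 0.0433 by posterior mean, and Pirb at 390 by kallisto. Ranked by CPM, Lilrb4a was 3rd, Pirb 47th and Lilra5 number 15392 of the coding genes. Lilrb4a held 53.6% of the pair by kallisto counts and 56.0% by TPM. With kallisto, mean TPM was 2044 for Lilrb4a-206, 462 for Lilrb4a-209, 495 for Lilr4b-210 and 43.1 for Pirb-201.

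For kallisto against RSEM, with no centring the log2 ratio reversed to 0.57 for Lilrb4a, 0.30 for Lilr4b, 0.53 for Pirb and 0.30 for Gm49339, and 22750 genes were higher and 88 lower. With no filter on low counts 5668 genes were lower, the ratio was -0.57 for Lilrb4a, and it missed the threshold for Pirb (-0.61, adjusted p = 0.0597 in limma). The cause was not tested.

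For retained-intron against coding models, expected counts gave 750 genes higher and 2449 lower. The ratio of Lilrb4a, a description with no test, was 10.86 with a pseudocount of 1, 10.22 by kallisto and 10.15 by posterior mean. With no trend in the prior the ratio was 12.66. Joined with Gm49339 it was 4.21, also with no trend, and 4.67 by kallisto. These joined and untrended fits were chosen after seeing the data. Leaving out 1 library in turn gave 569 to 1005 genes higher and 594 to 947 lower in this fit, the fewest without replicate 3. Of 173 recomputed values in all, 138 were labelled as unchanged. Levels and shares had to stay within the spread, ranks had to be equal, and single-gene ratios had to keep sign and call. Leaving out 1 of 3 libraries cannot move a mean level or share beyond that spread. Those labels were therefore fixed beforehand and say nothing about stability. Numbers of genes called had only to stay within a fixed factor of the main number. With 3 libraries of 1 group, differences between libraries have no replicate.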
